A study of Mus musculus with 16 samples.

Results

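Mss51, Fam83g, Tfcp2l1, Amy1 and Neto2 are 5 genes whose transcripts were far higher in the calf muscle of mice at 15 months of age than at 3 months. They were selected on that rise, as 5 of the 21777 genes tested, and are read by 7 probes on the array, 1 each for Mss51, Fam83g and Amy1 and 2 each for Tfcp2l1 and Neto2. In the order of rises from 3 to 15 months over all genes tested, Fam83g was at place 16, Tfcp2l1 at 18, Mss51 at 19, Amy1 at 21 and Neto2 at 30. The rise itself is therefore a description here, with no test, and the question followed is what each gene did at 24 and 29 months.

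RNA came from the gastrocnemius, a mainly fast-fibred muscle of the calf, of untreated females of C57Bl/6J, an inbred mouse strain. There were 4 groups of 4 samples, at 3, 15, 24 and 29 months, each sample on 1 Agilent array that reads the brightness of Cy3-labelled RNA. Whether each sample was a separate animal is not in the labels, and the spread and the p-values therefore describe these samples, whose differences may be technical. In whole muscle, fewer cells of a type and less RNA per cell cannot be told apart.

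These genes have known roles in quite different settings. Mss51 is a zinc-finger (MYND) protein of skeletal muscle that is found at mitochondria and is named for a yeast factor in the making of cytochrome oxidase. Its transcript is known to drop when signalling by myostatin, the hormone that limits muscle mass, is blocked. Fam83g, also called PAWS1, binds the transcription factor SMAD1 of bone morphogenetic protein (BMP) signalling and members of the casein kinase 1 family. Tfcp2l1 is a transcription factor of the CP2 and grainyhead family, known from pluripotent stem cells and from the collecting duct of the kidney. Amy1 encodes the alpha-amylase of saliva, which cuts starch and glycogen, and the mouse gene is also used in the liver from a separate promoter. Neto2 is a membrane protein that binds kainate receptors, a class of glutamate receptors, and the chloride transporter KCC2 in neurons.

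All 8 genes fixed as markers of the muscle fibre were measured. Among them were Acta1 at 18.21 to 18.88, Myh4 at 18.34 to 18.92, Tnnt3 at 18.60 to 19.04 and Mylpf at 11.66 to 12.69 log2 signal over the 16 arrays. Log2 signal here is the log2 brightness of a probe minus the 75th percentile of its array, plus the mean of those percentiles (8.11), so it can be compared between arrays but not between probes. On an array, 48.0% to 60.9% of non-control spots carried the scanner software's mark of a signal well above background, and none was saturated. Slide 1 held the 3- and 15-month arrays, in different rows, and slide 2 those of 24 and 29 months, also in different rows. Comparisons of 15 with 3 and of 29 with 24 months thus lay within a slide, where row and age cannot be told apart, and in all others slide and age cannot be told apart. limma's array weights, which are low for arrays far from the others of their age, were 0.36 and 0.52 for replicates 2 and 4 of 24 months and 0.27 and 0.40 for replicates 1 and 3 of 29 months, against 0.99 to 2.08 for the other 12.

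The promoters of Fam83g, Tfcp2l1 and Amy1 are printed because these are the 3 genes whose means stayed near their 15-month level at both later ages. Each window runs from 250 bases before to 50 after a transcription start, from RefSeq on assembly GRCm38.p6, 5′ to 3′ on the strand of the gene. Capitals mark matches, on either strand, to the E-box CANNTG, the TATA box TATAAA and the GC box GGGCGG. The Fam83g window lies at chr11:61684160-61684459 on the plus strand and that of Tfcp2l1 at chr1:118627695-118627994 on the plus strand. The windows of Amy1 lie at chr3:113577701-113578000 (window 1) and chr3:113574713-113575012 (window 2), both on the minus strand.
Fam83g: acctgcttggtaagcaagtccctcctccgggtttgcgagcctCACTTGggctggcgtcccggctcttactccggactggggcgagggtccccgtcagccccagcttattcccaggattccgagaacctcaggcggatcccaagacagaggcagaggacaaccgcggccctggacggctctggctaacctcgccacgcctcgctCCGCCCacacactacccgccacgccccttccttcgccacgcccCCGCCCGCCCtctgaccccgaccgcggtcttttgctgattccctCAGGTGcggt
Tfcp2l1: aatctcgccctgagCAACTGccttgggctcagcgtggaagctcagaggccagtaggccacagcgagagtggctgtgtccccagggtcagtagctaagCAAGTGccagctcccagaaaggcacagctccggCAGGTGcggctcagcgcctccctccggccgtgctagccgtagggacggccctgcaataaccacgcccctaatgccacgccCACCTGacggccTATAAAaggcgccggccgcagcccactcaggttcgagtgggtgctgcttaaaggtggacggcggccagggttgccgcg
Amy1 window 1: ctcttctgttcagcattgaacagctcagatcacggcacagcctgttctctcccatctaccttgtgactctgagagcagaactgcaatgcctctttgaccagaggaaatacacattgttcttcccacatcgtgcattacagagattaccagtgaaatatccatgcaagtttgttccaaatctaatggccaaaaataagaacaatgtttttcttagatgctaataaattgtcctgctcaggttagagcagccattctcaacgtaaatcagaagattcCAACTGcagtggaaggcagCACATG
Amy1 window 2: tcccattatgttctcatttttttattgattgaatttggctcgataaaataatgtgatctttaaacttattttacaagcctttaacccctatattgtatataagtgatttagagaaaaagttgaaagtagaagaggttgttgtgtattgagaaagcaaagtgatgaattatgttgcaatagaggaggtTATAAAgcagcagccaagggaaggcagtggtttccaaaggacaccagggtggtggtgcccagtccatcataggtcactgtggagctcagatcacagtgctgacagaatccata

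The promoters of these 3 genes differed in base composition. Of all 32851 promoter windows, the median GC content was 52.7%, with quartiles of 45.7% and 61.7%. Fam83g, at 67.0% GC, and Tfcp2l1, at 65.3%, lay above the upper quartile, whereas the Amy1 windows, at 42.7% and 38.0%, lay below the lower one. Fam83g held 3 GC boxes, of which 2 overlap at the start site, a motif found in 35.7% of all windows. Tfcp2l1 and Amy1 window 2 each held 1 TATA box, a motif in 13.6% of windows, at -28 to -23 from the start in Tfcp2l1 and at -63 to -58 in Amy1, with the start base as 0. E-boxes, the sites read by the muscle factors of the MyoD family among many others, numbered 4 in Tfcp2l1, 2 in Fam83g, 2 in Amy1 window 1 and 0 in Amy1 window 2, and 72.3% of all windows held at least 1. No window of the 5 genes held the FOXO core GTAAACA, present in 3.65% of windows. The Mss51 window, at 44.0% GC, held none of the motifs searched, and those of Neto2 had 72.0% and 42.7% GC. Only the second Neto2 window held the CCAAT box, CCAAT on either strand, which 37.4% of all windows held. A match of letters is a description and not a site of binding.

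At 24 and 29 months the 5 genes followed 3 courses. By their means, Fam83g, Tfcp2l1 and Amy1 kept 94.8% to 108.2% of their rise, on the log2 scale, at both later ages. At 29 months the arrays of Tfcp2l1 split, with replicates 2 and 4 (7.84 and 7.82) below every array of 15 and 24 months. The mean of Mss51 kept 42.8% of its rise at 24 months and 65.1% at 29 months, but the arrays of those ages overlapped. Neto2 lay at its 15-month level at 24 months and below it at 29 months, and no share of its rise is given because 3 of its 4 arrays of 3 months were not well above background. In all 5 genes the 4 arrays of 15 months lay above the 4 of 3 months, as 5.49% of all genes did, a count that the choice of these genes set.

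**Figure D1:**
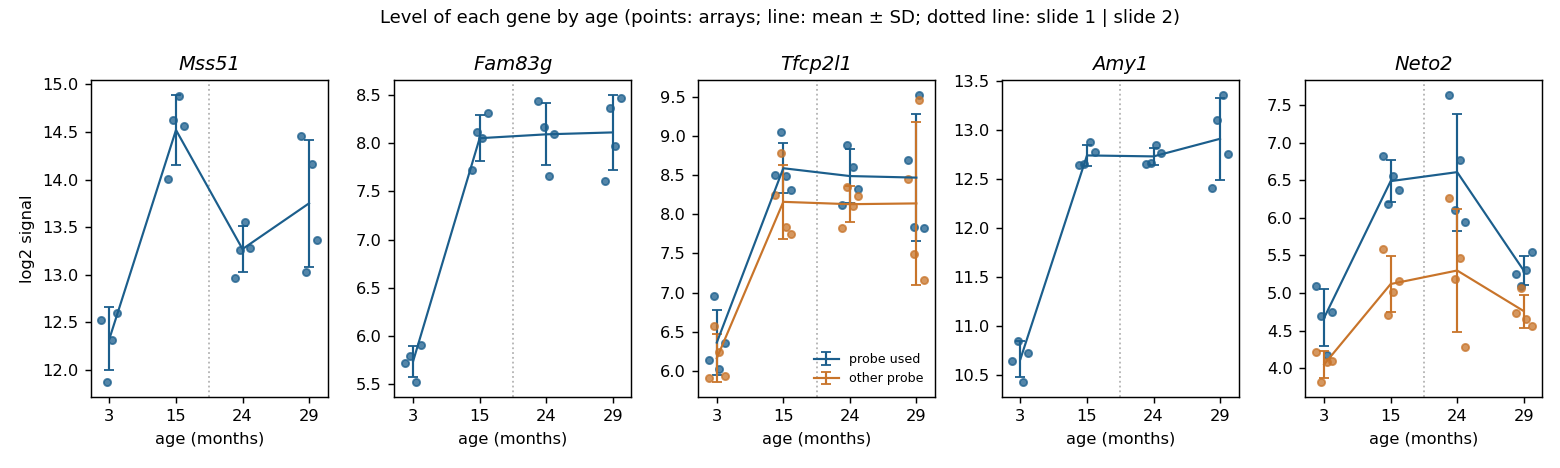
Log2 signal (vertical axis) of each gene against age in months (horizontal axis); points are single arrays, lines join the means of 4 arrays, bars are ± SD, and the dotted line separates slide 1 from slide 2. The means of Fam83g, Tfcp2l1 and Amy1 stay at their 15-month level, with the Tfcp2l1 arrays split at 29 months. Mss51 is lower at 24 months, and Neto2 is lower at 29 months. Tfcp2l1 and Neto2 have 2 probes each.

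Fam83g, the SMAD1 partner, was higher from 15 months on. At 3 months its log2 signal was 5.72, 5.79, 5.52 and 5.91 in replicates 1 to 4 (5.74 ± 0.16, mean ± SD, n = 4). At 15 months it was 7.72, 8.11, 8.05 and 8.31 (8.05 ± 0.24, n = 4). The difference of 2.31 (SE 0.20) on the log2 scale is a 4.96-fold higher signal. At 24 months the arrays read 8.44, 8.17, 7.66 and 8.09 (8.09 ± 0.32, n = 4). At 29 months they read 7.61, 8.36, 7.97 and 8.47 (8.11 ± 0.39, n = 4). Every array from 15 months on lay above every array of 3 months, and the 3 later ages overlapped with each other throughout. Signal was 5.10-fold that of 3 months at 24 months and 5.16-fold at 29 months. The probe was well above background on all 16 arrays. With normexp background correction in place of the scanner software's own, the rise of this dim probe was 1.45 on the log2 scale, and in the deposited log2 values it was 2.63.

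Amy1, the alpha-amylase gene, read nearly the same at 15 and 24 months. Its log2 signal was 10.64, 10.84, 10.42 and 10.72 at 3 months (10.66 ± 0.18, n = 4) and 12.64, 12.65, 12.88 and 12.77 at 15 months (12.74 ± 0.11, n = 4). The rise was 2.08 (SE 0.16), or 4.23-fold. At 24 months the arrays read 12.65, 12.66, 12.85 and 12.76 (12.73 ± 0.09, n = 4), a mean within 0.01 of that of 15 months. At 29 months they read 12.41, 13.10, 13.36 and 12.75 (12.91 ± 0.42, n = 4), so that the spread was wider but still covered the earlier level. No array of the 3 later ages came within the range of 3 months, and the signal at 29 months was 4.76-fold that of 3 months. The difference between 24 and 15 months had a 95% interval of -0.36 to 0.35.

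Tfcp2l1, the CP2-family transcription factor, rose from 6.14, 6.95, 6.02 and 6.35 at 3 months (6.36 ± 0.41, n = 4) to 8.50, 9.06, 8.49 and 8.31 at 15 months (8.59 ± 0.32, n = 4). That is a log2 difference of 2.22 (SE 0.33), or 4.67-fold, and 1.58 with normexp background correction. At 24 months the arrays read 8.12, 8.89, 8.61 and 8.32 (8.49 ± 0.34, n = 4), within the range of 15 months but for 1 array. At 29 months the arrays split, with 8.70 and 9.53 in replicates 1 and 3 and 7.84 and 7.82 in replicates 2 and 4 (8.47 ± 0.81, n = 4). The second probe of the gene gave a like picture. It read 5.90, 6.57, 6.24 and 5.93 at 3 months, 8.25, 8.79, 7.84 and 7.75 at 15 months and 7.82, 8.35, 8.11 and 8.23 at 24 months. At 29 months it read 8.45, 7.49, 9.46 and 7.16, again high in replicates 1 and 3 and low in 2 and 4. Its rise from 3 to 15 months was 2.0 (SE 0.39), or 3.99-fold, and on both probes every later array lay above all arrays of 3 months. Replicates 1 and 3 of 29 months are the arrays of low weight, whose part in the split was not tested.

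Mss51, the muscle MYND protein, had its highest level at 15 months. At 3 months the arrays read 12.53, 11.87, 12.32 and 12.60 (12.33 ± 0.33, n = 4), and at 15 months 14.01, 14.62, 14.88 and 14.56 (14.52 ± 0.37, n = 4). The rise was 2.19 (SE 0.28), or 4.56-fold. At 24 months the log2 signal was 12.97, 13.26, 13.55 and 13.28 (13.27 ± 0.24, n = 4). All 4 of these lay below all 4 of 15 months and above all 4 of 3 months. The mean was 1.25 (SE 0.28) lower than at 15 months, which is 2.38-fold, and still 1.92-fold that of 3 months. An arrangement with all 4 arrays lower at 24 than at 15 months held in 4.69% of all genes, and this comparison spans the slides. Since Mss51 was chosen for high values at 15 months, the choice itself favours a fall from that age. The share over all genes is therefore no measure of how rare its fall is. At 29 months the arrays read 14.46, 13.03, 14.16 and 13.37 (13.75 ± 0.67, n = 4). Replicates 1 and 3, the arrays of low weight, lay within the range of 15 months and replicates 2 and 4 within that of 24 months. The part of the low-weight arrays in this split was not tested. The means thus ran in the order 3, 24, 29 and 15 months, and the arrays of 29 months overlapped with those of both neighbours in that order. Without the 4 arrays of low weight, 29 minus 24 months was -0.07 on the log2 scale, against 0.49 with all arrays. The order of these ages therefore depends on the arrays used.

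Neto2, the kainate receptor partner, was the only one of the 5 whose main probe was not well above background on every array. At 3 months its log2 signal was 5.09, 4.69, 4.17 and 4.75 (4.67 ± 0.38, n = 4), with 1 of the 4 arrays well above background. At 15 months it was 6.83, 6.18, 6.56 and 6.37 (6.49 ± 0.28, n = 4), all well above background, as were all arrays of the later ages. The difference of 1.81 (SE 0.30), or 3.51-fold as measured, therefore rests on a start that 1 array measured. It was 3.28-fold when each array of 3 months was taken at the higher of its own signal and the dimmest signal on it that was marked well above background. The difference was 0.88 on the log2 scale with normexp correction and 2.21 in the deposited log2 values. The normexp value is a smaller rise than 3.28-fold, which is therefore no lower limit across background corrections. At 24 months the arrays read 7.64, 6.10, 6.77 and 5.94 (6.61 ± 0.78, n = 4), overlapping with 15 months. At 29 months they read 5.26, 5.09, 5.31 and 5.54 (5.30 ± 0.19, n = 4). All 4 lay below every array of 15 and of 24 months, while the lowest of 29 months and the highest of 3 months were equal to 2 decimals. The signal at 29 months was 1.54-fold that of 3 months, with a 95% interval of the log2 difference of -0.02 to 1.27. An order with all 4 arrays of 29 months below those of 15 months held in 7.88% of all genes. The choice of Neto2 for high values at 15 months favours such an order, so this share is no measure of rarity.

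The second Neto2 probe was not well above background on any of the 4 arrays of 3 months, against 3 of 4 at each later age. It read 5.59, 4.71, 5.02 and 5.16 at 15 months, 1.58-fold above 3 months with the arrays of 3 months raised in the same way. This is no lower limit, since only 3 of 4 arrays of 15 months were well above background. At 24 months it read 6.27, 5.19, 5.46 and 4.28, and at 29 months 4.74, 5.07, 4.66 and 4.56. Its mean was thus also lower at 29 than at 24 months (4.76 ± 0.22 against 5.30 ± 0.82, n = 4 each), but the arrays of those ages overlapped.

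Against 3 months, all 5 genes had every array of 24 months and every array of 29 months above the youngest age, which 6.13% and 8.49% of all genes did. Since the members were chosen for low values at 3 months relative to 15 months, these counts carry over part of that choice. The spread between arrays was wider at 29 than at 24 months in Mss51 (SD 0.67 against 0.24), Tfcp2l1 (0.81 against 0.34), Amy1 (0.42 against 0.09) and Fam83g (0.39 against 0.32), and narrower in Neto2 (0.19 against 0.78).

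The difference between 24 and 29 months is the one whose 2 means come from arrays on which the genes were not chosen, and it was tested with limma over all 21777 genes, with Benjamini-Hochberg adjustment and a threshold of 0.05. The estimate of the spread drew on all 16 arrays, those of 3 and 15 months included. Neto2 fell by 1.31 on the log2 scale (SE 0.30, 95% interval -1.96 to -0.67), a 2.48-fold lower signal, with an adjusted p of 0.0444 by limma. All 4 arrays of 29 months were lower than all 4 of 24 months, as in 2.83% of genes, and its fall was at place 80 in the order of all genes. Over the whole array 1.08% of genes were called higher (236) and 0.432% lower (94) at 29 than at 24 months, 330 in all. That total was 122 to 439 with 1 array left out and 41 without the 4 arrays of low weight. Mss51 was 0.49 higher on the log2 scale (SE 0.28, 95% interval -0.12 to 1.09, adjusted p = 0.444 by limma), which allows a ratio between 0.922 and 2.13. For Amy1 the difference was 0.18 (SE 0.16, interval -0.18 to 0.53, adjusted p = 0.662 by limma). Fam83g differed by 0.02 (SE 0.20, interval -0.40 to 0.44, adjusted p = 0.98 by limma) and Tfcp2l1 by -0.01 (SE 0.33, interval -0.73 to 0.70, adjusted p = 0.991 by limma). These 4 genes did not pass the threshold, which does not show that their levels were equal.

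The call of Neto2 lies close to the threshold. It was lost in 14 of the 16 fits that each left out 1 array, where the difference ran from -1.54 to -0.97 and the adjusted p of limma from 0.0354 to 0.106, and kept without replicate 3 of 3 months and without replicate 4 of 24 months. In a fit of the arrays of 24 and 29 months alone, the adjusted p of Neto2 by limma was 0.277. The largest change came from leaving out replicate 1 of 24 months, the highest array of its age, which gave -0.97 (adjusted p = 0.0602 by limma). Without the 4 arrays of low weight, the difference was -1.89 (adjusted p = 0.0526 by limma) for Neto2. In that setting it was -0.07 for Mss51, -0.54 for Tfcp2l1, 0.37 for Fam83g and 0.18 for Amy1, none of which passed the threshold.

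**Figure D2:**
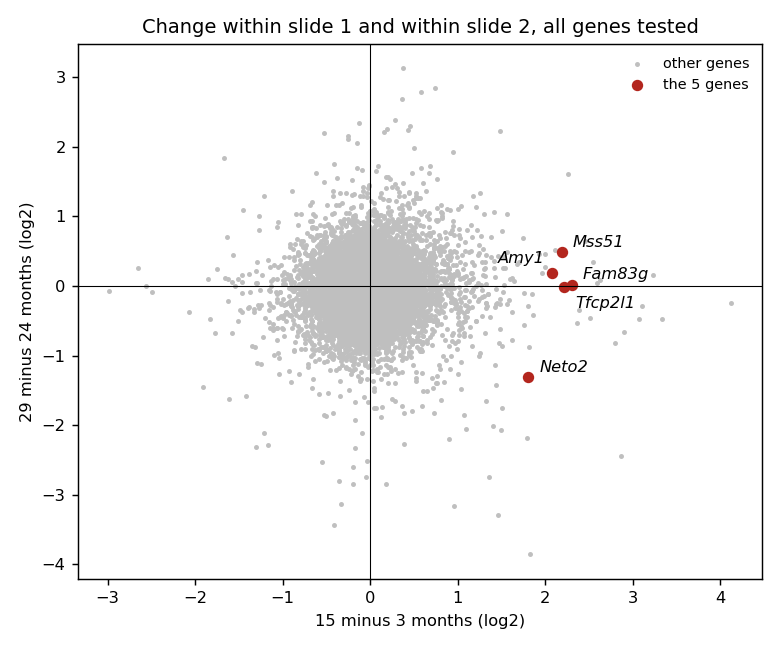
Log2 difference of 29 minus 24 months (vertical axis, within slide 2) against that of 15 minus 3 months (horizontal axis, within slide 1); each grey point is 1 of the genes tested and the 5 named points are the genes described. All 5 lie far to the right by choice; Neto2 lies at -1.31 on the vertical axis and the other 4 between -0.01 and 0.49.

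Fat cell transcripts, like Neto2, had higher means at 15 and 24 months than at 3 and 29 months. The mean centred log2 signal of 4 adipocyte markers (Adipoq, Plin1, Cidec and Cfd, of 5 listed) was -0.58 at 3 months (range -0.81 to -0.19), 0.56 at 15 months (-0.43 to 1.39), 0.99 at 24 months (0.02 to 3.35) and -0.97 at 29 months (-2.33 to 0.73). Array by array the values parted, since replicate 4 of 24 months had the highest adipocyte mean (3.35) and the lowest Neto2 of its age (5.94). Replicate 1 of that age had an adipocyte mean of 0.02 with the highest Neto2 (7.64). Lep, the fifth marker, was too dim to be tested, meaning that no age had all 4 arrays well above background. The mean of 6 nerve and Schwann cell markers (of 7 listed, Nefl being too dim) was 0.24 at 3 months (-0.59 to 1.21), 0.42 at 15 months (-0.42 to 1.30), -0.10 at 24 months (-0.59 to 0.47) and -0.56 at 29 months (-1.52 to 0.33). It was thus also lowest at 29 months, with ranges that overlapped between all ages. The part of fat cell or nerve RNA in the Neto2 values was not tested.

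**Figure D3:**
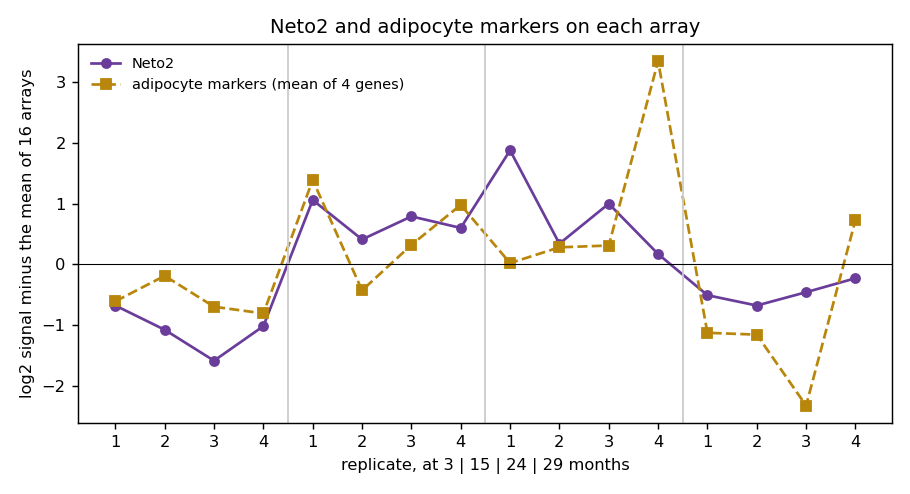
Log2 signal minus the mean of the 16 arrays (vertical axis) for Neto2 and for the mean of 4 adipocyte markers, on each array (horizontal axis, replicates 1 to 4 of each age). Both are low at 3 and mostly low at 29 months, while at 24 months the adipocyte mean peaks on replicate 4 (3.35), where Neto2 is lowest for that age.

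Markers of the organs in which Amy1 and Tfcp2l1 are best known were mostly at background. Of 11 markers of salivary gland and pancreas, 9 were too dim to be tested, among them Aqp5, Smgc, Bpifa2, Cpa1 and Pnlip. The mean of the other two, Cel and Ctrb1, was 0.28 at 3 months (range -0.18 to 1.40 over arrays), -0.15 at 15 months (-0.27 to -0.05), 0.06 at 24 months (-0.25 to 0.25) and -0.19 at 29 months (-0.34 to -0.08). Of 6 liver markers, 4 were too dim to be tested (Alb, Apoa1, Ttr and Fgb), and the mean of Apoa2 and Serpina1a was -0.26 at 3 months (-0.49 to 0), -0.18 at 15 months (-0.32 to -0.04), 0.18 at 24 months (-0.19 to 0.73) and 0.25 at 29 months (-0.20 to 1.09). Of 7 markers of epithelium and kidney duct, 5 were too dim to be tested (Epcam, Cdh1, Krt19, Cldn4 and Aqp3), and the mean of Krt8 and Aqp2 was -0.41 at 3 months (-0.69 to -0.12), -0.42 at 15 months (-0.91 to 0), 0.65 at 24 months (0.07 to 1.43) and 0.18 at 29 months (-0.19 to 0.90). The salivary and pancreatic value of 3 months rests on replicate 1 (1.40), the other 3 arrays lying between -0.18 and -0.04. Some other cell types also differed between 3 and 15 months. The fibroblast mean was 0.85 at 3 and 0.22 at 15 months, the satellite cell mean 0.87 and -0.12 and the endothelial mean 0.37 and 0.11. The B cell mean was -0.28 at 3 and -0.66 at 15 months, that of T and NK cells -0.02 and -0.14 and that of macrophages -0.04 and 0.05. In B cells, T and NK cells and macrophages the arrays of those ages overlapped. The part of any of these cell types in the values of the 5 genes was not tested. The muscle fibre mean stayed between -0.10 and 0.12 at all ages.

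The genes whose course over the 16 arrays was most like that of each member were found by the root mean square (RMS) difference of log2 signals, after subtracting the mean of each gene. This is a description over arrays that share the age steps on which the members were chosen. For Amy1 the nearest gene was Amy2a5, a pancreatic amylase gene, with an RMS difference of 0.09 against an SD of Amy1 itself of 0.98. The amylase genes are related in sequence, so that a probe of one may also read transcripts of the other. This was not checked, and the values of both are uncertain in that respect. Amy1 and Fam83g were the most alike of the 10 pairs of members (0.31), and Fam83g was also near Amy2a5 (0.34) and Prkcz, an atypical protein kinase C (0.45). Unlike Fam83g, Prkcz had means that went on rising after 15 months (4.86, 6.54, 7.09 and 7.40 from 3 to 29 months). The third gene nearest to Amy1 was Aldh1a1, which makes retinoic acid (0.37).

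The nearest genes to Tfcp2l1 were Foxo1, the forkhead factor of fasting and muscle atrophy (0.43), Amy1 (0.43, equal to 2 decimals) and Amy2a5 (0.46). Foxo1, Hsd17b7 and Shc2 have 2 probes each and Prkcz has 3, of which the brightest kept probe was used. Foxo1 read 9.95, 10.34, 10.48 and 10.75 at 3 months and 11.66, 12.09, 11.88 and 11.73 at 15 months. At 29 months it read 12.55, 11.84, 13.19 and 11.57, with replicates 1 and 3 high as on both Tfcp2l1 probes. Mss51 had no neighbour as close, its nearest being Hsd17b7, an enzyme of cholesterol synthesis (0.53), Shc2, an adaptor protein (0.54), and Ppp1r3c, which directs a phosphatase to glycogen (0.54). Hsd17b7 was also higher in replicates 1 and 3 of 29 months (8.15 and 8.64) than in replicates 2 and 4 (7.33 and 7.74), as Mss51 was. Replicates 1 and 3 are the low-weight arrays of that age, and their part in the likeness of these genes and of Foxo1 with Tfcp2l1 was not tested. For Neto2 the nearest were Ces1d, a carboxylesterase of lipid metabolism (0.56), Pdzd3, a scaffold protein (0.58), and Zmynd10, a factor in building motile cilia (0.58). Ces1d had means of 9.74, 10.88, 11.21 and 10.48 from 3 to 29 months, and Pdzd3 of 4.71, 6.18, 6.08 and 5.26, both highest at 15 or 24 months. Pdzd3 read 5.43, 5.11, 3.12 and 5.17 at 3 months, so its low mean there rests in part on replicate 3. Zmynd10 was not well above background on any array of 3 or 29 months, so its likeness to Neto2 is made in part of background values. Mss51 and Neto2 were the least alike of the members (0.88).

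**Figure D4:**
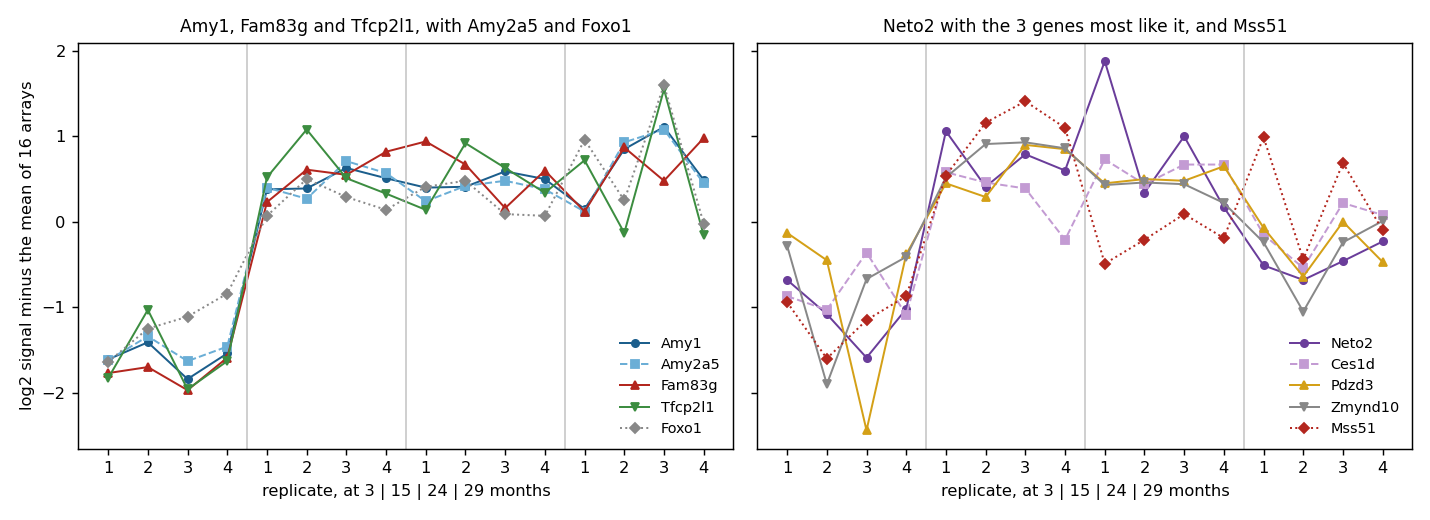
Log2 signal minus the mean of the 16 arrays (vertical axis) on each array (horizontal axis, replicates 1 to 4 of each age) for Amy1, Fam83g, Tfcp2l1, Amy2a5 and Foxo1 (left) and for Neto2, Ces1d, Pdzd3, Zmynd10 and Mss51 (right). On the left all 3 members stay up from 15 months on and Amy2a5 lies on Amy1. On the right Neto2 and its neighbours are lower at 29 months, and Mss51 is lower at 24 months. No Zmynd10 array of 3 or 29 months was well above background.

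Genes that work with the 5 members were followed as 8 lists of 85 genes, of which 64 were tested. At 15 against 3 months 2 of them, Amy2a5 and Zmynd10, were called higher, under limits given with each gene below. In that comparison none of the 64 was called lower, and over the whole array 0.634% of genes were called higher and 0.28% lower. The count at an unadjusted p under 0.05 by limma was 2 higher and 11 lower, against 1259 higher and 1112 lower of all 21777 genes. At 24 against 15 months none of the 64 was called by limma, in a comparison with 0.101% of all genes called. There 3 were higher and 3 lower at an unadjusted p under 0.05 by limma, as were 2842 of all genes in either direction. At 29 against 24 months none was called either. There 6 were higher and 4 lower at an unadjusted p under 0.05 by limma, against 1672 higher and 1642 lower of all genes. Against 3 months, 3 rose and 6 fell at 24 months, where 2.22% of all genes were called higher and 2.21% lower. At 29 months 6 rose and 10 fell, where 6.84% of all genes were called higher and 7.95% lower. These counts include Amy2a5 (higher at both ages), Zmynd10 (higher at 24 months) and Fam83d (lower at both ages), with the limits given below. At an unadjusted p under 0.05 by limma, 7 were higher and 15 lower at 24 months, against 2215 and 2320 of all genes. At 29 months 8 were higher and 16 lower, against 2769 and 3507. These counts over all genes also stand beside those of the single lists below. Without the 4 arrays of low weight, 2 rose and 2 fell at 24 months and 7 rose and 7 fell at 29 months. The median log2 difference over the 64 genes lay between -0.13 and -0.01 in the 5 comparisons, and over all genes between -0.05 and 0.005.

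Amy2a5 had the largest rise of the related genes from 3 to 15 months. Its log2 signal was 7.92, 8.20, 7.91 and 8.08 at 3 months and 9.93, 9.81, 10.25 and 10.11 at 15 months. The difference was 2.0 (SE 0.18), or 4.0-fold. It read 9.78, 9.96, 10.01 and 9.91 at 24 months, 3.70-fold the level of 3 months, and 9.65, 10.47, 10.61 and 9.99 at 29 months, 4.45-fold. Amy2a5 was called higher at all 3 later ages against 3 months, and no fit that left out 1 array lost these calls. Its probe may also read Amy1, which was chosen on this rise. The calls are therefore no support separate from Amy1, and no p is given. The second Amy2a5 probe had means of 7.32, 9.49, 9.53 and 9.46 from 3 to 29 months, while the probe of Amy2a4, another copy, was not well above background on any array. Of the other genes that break down glycogen or starch, Gaa, the lysosomal glucosidase, rose by 0.39 (SE 0.10) from 3 to 29 months (adjusted p = 0.0139 by limma). Pygm, the muscle glycogen phosphorylase, was not called in any comparison, with means of 16.83, 16.89, 16.62 and 16.48. The list had 6 of 13 genes tested, of which 1 rose at 15, 1 at 24 and 2 at 29 months against 3 months, and none fell.

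In the list of the Fam83g family and of casein kinase 1, 6 of 10 genes were tested and none was called at 15 against 3 months (0 higher and 2 lower at an unadjusted p under 0.05, limma). Against 3 months none was called higher at 24 or 29 months, with 1 and 2 higher at an unadjusted p under 0.05 by limma. Fam83d, which brings casein kinase 1 to the mitotic spindle, was called lower at 24 and 29 months against 3 months. Its log2 signal had a mean of 7.15 at 3 months and of 4.50, 4.25 and 4.51 later, a difference of -2.64 (SE 0.72) at 29 months as measured. Fam83d entered the test only through 3 months, where it was high. All 4 arrays of that age were well above background, against 2 of 4 at 24 and at 29 months. Its calls against 3 months therefore support nothing by themselves, and no p is given. The size of the fall rests in part on dim values. Of the 16 fits that left out 1 array, 3 lost the call at 29 months (without replicates 1 or 3 of 3 months or replicate 3 of 29 months) and 7 that at 24 months. Fam83h had means of 5.36, 5.34, 6.13 and 6.14 from 3 to 29 months, a difference of 0.79 (SE 0.33) at 29 against 3 months that did not pass the test (adjusted p = 0.124 by limma). Fam83a, Fam83b, Fam83c and Fam83e were too dim to be tested. Csnk1a1, the kinase that FAM83 proteins bind, was not called, with means of 11.82, 11.70, 11.77 and 11.99.

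BMP signalling, in which Fam83g binds SMAD1, had 10 of 11 genes tested. None was called at 15 months against 3 months (0 higher and 3 lower at an unadjusted p under 0.05, limma). Against 3 months, 2 fell at 24 months, and 2 rose and 2 fell at 29 months. At 29 months the receptor Bmpr1b was higher by 1.16 (SE 0.22, adjusted p = 0.00289 by limma) and Bmpr2 by 0.48 (SE 0.12, adjusted p = 0.0184), while Bmpr1a was lower, with a difference of -0.67 (SE 0.11, adjusted p = 0.000854). The call of Bmpr2 was lost without replicates 1 or 2 of 3 months or 2 or 3 of 29 months. Bmpr1a was also called at 24 months (-0.48), except without replicates 1 or 3 of 3 months. Smad1 itself was lower, with differences of -0.72 (SE 0.16) at 24 months (adjusted p = 0.0188 by limma) and -0.51 (SE 0.16) at 29 months (adjusted p = 0.0418). The first call was lost without replicate 4 of 3 months or replicate 2 of 24 months, and the second in 10 of the 16 fits without 1 array. Id1, a target gene of the pathway, was not called, with means between 9.91 and 10.19.

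Myostatin and TGF-beta signalling, the pathway tied to Mss51, had all 11 genes tested, and none was called at 15 months (0 higher and 2 lower at an unadjusted p under 0.05, limma). Mstn, myostatin itself, had means of 11.08, 10.98, 10.52 and 10.50 and was not called in any comparison. Against 3 months, 2 genes of the list fell at 24 months, and 1 rose and 3 fell at 29 months. The myostatin receptor Acvr2b fell, with differences of -0.85 (SE 0.17) at 24 months and -0.63 (SE 0.17) at 29 months (adjusted p = 0.0134 and 0.0234 by limma), the latter call lost without replicates 3 or 4 of 3 months or 1 or 4 of 29 months. Smad3, which carries the signal to the nucleus, was lower at 29 months with a difference of -0.94 (SE 0.16, adjusted p = 0.00166 by limma), and the receptor Tgfbr1 was higher by 0.56 (SE 0.10, adjusted p = 0.00259). Acvr2a was also called lower at both ages (-0.60 and -0.47), calls lost in 6 and 11 of the 16 fits without 1 array. Since these comparisons span the slides, slide and age cannot be told apart in them.

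Of the other MYND-domain genes, 11 of 12 were tested, and Zmynd10 was the only one called at 15 months. It had no array well above background at 3 months, all 4 at 15 months and none again at 29 months. The means of 3 and 15 months were 3.50 and 5.12, or 1.58-fold higher with the arrays of 3 months raised as for Neto2. It entered the test only through 15 months, where it was high, so its call at that age supports nothing by itself, and no p is given. This call was lost without replicate 2, 3 or 4 of 15 months. It was also called at 24 against 3 months, lost in 4 of the 16 fits without 1 array, and the sign of that difference turned in 1 alternative setting. Deaf1, a transcription factor, was lower at 24 and 29 months against 3 months, with differences of -0.55 (SE 0.09, adjusted p = 0.00348 by limma) and -0.71 (SE 0.09, adjusted p = 0.000173). Zmynd8 was called higher at both ages (0.60 and 0.52; lost in 10 and 7 of the 16 fits) and Zmynd19 lower at 29 months (-0.45; lost in 9). Smyd1, a methyltransferase of striated muscle, was not called, with means of 12.81, 12.78, 12.47 and 12.44.

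In the list of cytochrome oxidase assembly and translation, the process for which Mss51 is named, all 16 genes were tested and none was called at 15 months (0 higher and 1 lower at an unadjusted p under 0.05, limma). At 29 against 3 months Cox15, which makes heme a, and Coa5 fell, with differences of -0.50 (SE 0.12, adjusted p = 0.0128 by limma) and -0.52 (SE 0.17, adjusted p = 0.0475), the latter lost in 12 of the 16 fits without 1 array. Tfcp2 and Ubp1, the relatives of Tfcp2l1, were not called in any comparison, with means of 7.91, 8.15, 7.99 and 8.01 for Tfcp2 and of 6.08, 5.94, 6.00 and 5.94 for Ubp1, and Grhl1, Grhl2 and Grhl3 were too dim to be tested. Of the partners of Neto2, Grik5 and the KCC2 gene Slc12a5 were measured and not called in any comparison, while Neto1 and Grik1, Grik2, Grik3 and Grik4 were too dim to be tested. Grik5 had means of 6.76, 6.35, 6.65 and 6.62 and Slc12a5 of 7.12, 6.87, 6.62 and 6.71. For these 2 lists the counts at an unadjusted p under 0.05 by limma over the 5 comparisons were 0 for the factors and 1 lower for the Neto2 partners at 15 and at 24 months against 3 months.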

How the data were processed

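Per the file headers, the deposited intensity values are spot brightness read by Feature Extraction 10.7.1.1, with background subtraction and spatial detrending but no normalization between arrays. The series table of log2 values deposited by the authors was joined by feature number (r 0.985 to 0.993 with the scanner values across probes, which are not independent; by probe name -0.005 to 0.0183) and used as an alternative, its making not given in the sources used here. Of 55588 probes without outlier spots, 26540 matched 1 RefSeq symbol (GRCm38.p6). Log2 signals minus each array's 75th percentile were kept for 28435 probes well above background on all 4 arrays of an age, and the brightest kept probe stood for a gene (21777 genes). The number of arrays limits the precision. limma 3.58.1 (R 4.3.3) fitted the 4 age means over 16 arrays (12 residual and 2.72 prior degrees of freedom), two-sided, Benjamini-Hochberg over genes. The fit was tested on simulated data.

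Members and lists were chosen with earlier results of these data known. Named genes were all member probes, the 3 nearest genes to each member by RMS difference, and in each list at most 3 called genes of smallest p in a comparison. Amy2a4, Pygm, Csnk1a1, Fam83h, Id1, Mstn, Smyd1, Tfcp2, Ubp1, Grik5, Slc12a5 and genes not tested were named for their roles, after their values were seen. The alternatives were quantile and median scaling, normexp (offset 50, on median spot signals), deposited values, filters, the mean over probes, only the ages compared, a replicate block, trend and robust eBayes, array weights, and leaving out arrays. Leaving out the 4 arrays of low weight for the related lists was chosen after seeing the data. No sequence of a probe was used here.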

Additional observations from a re-analysis of the deposited data

How the results depend on the processing

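The number of genes called at 29 against 24 months was 330. It was 567 with normexp, 1097 in the deposited log2 values, 141 with no filter, 7 in a fit of only the ages compared, 197 with array weights and 41 without the 4 arrays of low weight. With 1 array left out it ran from 122 to 439: it was 128, 144 and 173 without replicates 2, 3 and 4 of 24 months, 122 without replicate 3 of 29 months and 209 without replicate 2 of 15 months. The causes of these moves were not tested. The fits of only the ages compared and those that left out arrays also had fewer samples.

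The fall of Neto2 kept its direction in every setting that gave a value, but was not called with quantile normalization (-1.21, adjusted p = 0.0793 by limma), median scaling (-1.17, 0.103), no filter (-1.31, 0.0952), only the ages compared (-1.31, 0.277) or without the 4 arrays of low weight (-1.89, 0.0526). With 1 array left out it ran from -1.54 to -0.97. Over all alternatives other than leaving out 1 array the adjusted p ran from 0.0129 to 0.277. Neto2 gave no value when every array had to be well above background. The other 4 members were called in no setting. Over these alternatives Mss51 ran from -0.07 to 0.63, Fam83g from -0.05 to 0.37, Tfcp2l1 from -0.54 to 0.13 and Amy1 from 0.12 to 0.32 (29 minus 24 months). Median scaling moved the median of all genes from -0.05 to 0.091 at 29 against 24 months and from 0.005 to -0.149 at 24 against 15 months. Fewer of the related genes were called lower at 24 against 3 months without the 4 arrays (2 against 6).

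Replicate numbers follow the array column, and same-numbered samples did not deviate together (r -0.47 to -0.02 between 29 and 24 months, -0.16 to 0.17 between 15 and 3 months, across genes). With the replicate number as a block 210 genes were called and Neto2 kept its value of -1.31 (adjusted p = 0.0388 by limma).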

Other observations

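The levels of the 7 member probes were checked at each age for a sample far from the other 3 by Dixon's criterion, and 0 of 28 groups had one, where chance gives about 1 in 20.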
